A study of Homo sapiens with 2 samples.

Results

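Kallikrein-related peptidases KLK5 to KLK14 were examined in CP-A cultures, of which 1 was repeatedly exposed to pH 6.4 + DCA and 1 served as control. CP-A is a line of metaplastic cells from Barrett's esophagus, the columnar lining that can replace squamous epithelium under reflux, and it carries a stably transfected human telomerase gene (TERT) that immortalizes it. The members are 10 genes of 17687 measured, matched by gene symbol, and each had 1 row in the deposited table. The group was chosen by differences already known between the same 2 arrays, so its values are a description with no test. The pH 6.4 + DCA culture received, per the methods, 3 exposures of 48 h each to medium acidified with hydrochloric acid and holding 100 µM deoxycholic acid (DCA), a secondary bile acid, and was regrown in basal medium between them. The control culture was grown without acid and DCA, and the medium of both held fetal bovine serum, epidermal growth factor, bovine pituitary extract, hydrocortisone, a steroid, and cholera toxin.

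Each condition was measured on 1 Clariom S human array, where several short probes report each gene in a single colour. No difference therefore has a replicate check, and no error, p-value or standard deviation can be attached to it. Values are log2 expression levels as the authors deposited them, differences are pH 6.4 + DCA minus control, and a gene is called lower or higher where the levels differed by 2-fold or more, the threshold of the methods. The arrays had medians of 6.50 in pH 6.4 + DCA and 6.55 in control over 20893 transcript clusters (the array's gene-level units), and the median difference was 0.0066. Lower quartiles were 4.45 in pH 6.4 + DCA and 4.43 in control, and upper quartiles were 9.41 in pH 6.4 + DCA and 9.42 in control. A level near or under the lower quartile is a dim signal, on which a fold change rests weakly. Group names follow the sample labels, which no gene on the arrays checks. Over all transcript clusters, 4.00% were called lower and 2.65% higher. All 5 epithelial markers lay above the upper quartile on both arrays, and 2 of them were lower, KRT18 by 2.77-fold and EPCAM by 2.96-fold. All 5 had differences below 0, with a median of -0.84. The squamous keratin KRT14 was 7.38-fold lower, with levels of 11.54 in pH 6.4 + DCA and 14.42 in control, and KRT5 had 16.40 in pH 6.4 + DCA and 17.00 in control. Of 7 columnar and intestinal markers none was called, their levels ranged over 3.49 to 7.80 in pH 6.4 + DCA and 3.38 to 6.86 in control, and 3 of them (VIL1, MUC5AC and TFF1) lay under the lower quartile on both arrays. Of 4 fibroblast markers only THY1 was called, at 2.00-fold lower, and none of 4 leukocyte and 3 endothelial markers was called. What part these shifts in cell type markers had in the results was not tested.

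Kallikrein-related peptidases are secreted serine proteases of the trypsin fold, made as inactive precursors that are switched on by removal of a short propeptide. Their genes lie side by side on the long arm of chromosome 19. In the epidermis, KLK5, KLK7 and KLK14 form a cascade in which the proteases activate each other, cut the adhesion proteins between cornifying cells and so allow shedding. Inhibitors such as LEKTI, the product of SPINK5, hold them back. KLK10 was first described as a gene of normal epithelial cells that is lost in breast cancer lines, and its silencing in tumours has been tied to DNA methylation.

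The stretches just before the start sites of KLK10, KLK7 and KLK6 are printed because these are the members called lower, 3 of 10, beside 4.00% of all transcript clusters called lower and 2.65% called higher. They stand together with that of KLK11, the next gene after KLK10 in gene order, which was not called. They are the 250 bases before the most upstream RefSeq start of each gene (GRCh38.p14), written 5′ to 3′ along the gene, with CpG dinucleotides, the sites of DNA methylation, in capitals.
KLK10, chr19:51019862-51020111, minus strand: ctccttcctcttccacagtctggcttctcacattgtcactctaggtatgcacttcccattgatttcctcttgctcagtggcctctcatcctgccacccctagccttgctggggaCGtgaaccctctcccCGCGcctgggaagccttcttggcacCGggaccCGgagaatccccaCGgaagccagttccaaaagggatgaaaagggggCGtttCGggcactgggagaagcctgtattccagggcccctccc
KLK7, chr19:50984065-50984314, minus strand: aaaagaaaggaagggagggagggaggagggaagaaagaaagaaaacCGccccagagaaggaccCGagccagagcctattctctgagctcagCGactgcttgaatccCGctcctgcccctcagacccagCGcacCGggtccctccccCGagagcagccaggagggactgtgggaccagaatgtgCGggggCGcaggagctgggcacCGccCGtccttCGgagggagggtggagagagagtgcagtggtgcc
KLK6, chr19:50969592-50969841, minus strand: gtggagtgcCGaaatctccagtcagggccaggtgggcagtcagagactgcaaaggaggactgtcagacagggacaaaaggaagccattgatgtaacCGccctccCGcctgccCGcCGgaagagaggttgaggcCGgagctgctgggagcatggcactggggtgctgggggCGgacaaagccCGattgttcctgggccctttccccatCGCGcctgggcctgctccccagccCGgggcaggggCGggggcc
KLK11, chr19:51027647-51027896, minus strand: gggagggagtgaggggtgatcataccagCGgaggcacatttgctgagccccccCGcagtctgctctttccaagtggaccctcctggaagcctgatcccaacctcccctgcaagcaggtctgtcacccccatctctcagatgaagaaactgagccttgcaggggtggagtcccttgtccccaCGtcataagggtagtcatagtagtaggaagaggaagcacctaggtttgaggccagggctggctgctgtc

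The printed stretches held 8 CpG dinucleotides for KLK10, 12 for KLK7, 12 for KLK6 and 3 for KLK11. The RefSeq table has windows of 300 bases, 250 before and 50 after each start, and listed 16 such windows for 9 of the 10 members, KLK8 being unlisted. Over all 35116 windows the median was 14 CpG dinucleotides. KLK10 had 9 and 11 in its windows, KLK7 between 13 and 16 in its windows and KLK6 had 15, whereas KLK11 had 3 and 11. The windows of the called and uncalled members overlapped in CpG content, and DNA methylation was not analysed here. Motifs were searched on both strands of the whole windows. The GC box GGGCGG was found in 10 of the 16 member windows, of KLK6, KLK7, KLK9, KLK11, KLK13 and KLK14, beside 45.0% of all windows. Some windows of KLK7, KLK13 and KLK14 overlap, so the same box can count more than once, and no enrichment is read from the count. The TATA box TATAAA (11.5% of all windows), the AP-1 site TGANTCA (7.71%) and the steroid receptor motif AGAACA (14.8%) were found in none of the member windows. Neither window of KLK10 held any of these motifs. A match is a description of the letters and not a bound site.

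KLK10 had by far the largest difference of the members. Its level was 5.79 on the pH 6.4 + DCA array and 10.38 on the control array (transcript cluster TC1900011233.hg.1). The difference of -4.59 corresponds to a level 24.1-fold lower in pH 6.4 + DCA, or 4.14% of control, and with 32 added on the linear scale, which damps dim signals, the difference was -3.97. The control level lay above the upper quartile of its array, whereas the level in pH 6.4 + DCA lay between the lower quartile and the median. In RNA of a whole culture, fewer cells expressing a gene and less RNA per expressing cell cannot be told apart. Counting KLK10 itself, 3 of the 20893 transcript clusters had a difference as low or lower. KLK10 encodes a member of the family whose proteolytic activity is poorly defined, and its difference exceeded that of every other member by more than 3 log2 units.

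KLK7 was also called lower. KLK7, the chymotrypsin-like enzyme of the stratum corneum, cleaves corneodesmosin and desmocollin 1. Its level was 5.82 in pH 6.4 + DCA and 7.31 in control, a difference of -1.49, which is 2.80-fold lower. The level lay below the median of its array in pH 6.4 + DCA and above it in control. A difference as low or lower was found in 1.57% of all transcript clusters.

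KLK6 passed the threshold narrowly. KLK6, a trypsin-like enzyme also known as neurosin from its expression in the central nervous system, had a level of 4.16 in pH 6.4 + DCA and 5.21 in control. The difference was -1.06, or 2.08-fold lower. The pH 6.4 + DCA level lay under the lower quartile of its array and the control level between the lower quartile and the median. When 32 was added to all linear signals, the difference was -0.47 and the call was lost, while KLK7 at -1.11 kept its call.

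KLK9 fell just short of the threshold. Its level was 4.23 in pH 6.4 + DCA and 5.08 in control, a difference of -0.85, and the pH 6.4 + DCA level lay under the lower quartile. KLK9 and KLK6 are therefore the members on either side of the 2-fold limit, and both were under the lower quartile in pH 6.4 + DCA. What KLK9 cleaves is little known.

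KLK5 and KLK8 had smaller differences of the same sign. KLK5, the trypsin-like enzyme that can activate itself as well as KLK7 and KLK14, had a level of 4.97 in pH 6.4 + DCA and 5.41 in control, a difference of -0.44. KLK8, or neuropsin, a trypsin-like enzyme of epidermis and brain, had 7.17 in pH 6.4 + DCA and 7.60 in control, a difference of -0.43. KLK8 lay above the median on both arrays, so its small difference does not rest on a dim signal. Differences as low as those of KLK5 and KLK8 or lower were found in 17.1% and 17.7% of all transcript clusters.

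The remaining members, KLK11 to KLK14, had small differences around 0. KLK12 had the highest difference of all members, at 0.50, with levels of 6.20 in pH 6.4 + DCA and 5.70 in control. KLK12 encodes a trypsin-like enzyme. KLK11, another trypsin-like enzyme, first found in brain, lay under the lower quartile on both arrays, at 4.39 in pH 6.4 + DCA and 4.15 in control. KLK13, an enzyme of stratified epithelia including that of the esophagus, had 4.81 in pH 6.4 + DCA and 4.68 in control. KLK14, a trypsin-like enzyme of the epidermal cascade, had 4.37 in pH 6.4 + DCA and 4.71 in control, a difference of -0.33. All 4 lay below the median on both arrays.

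**Figure D1:**
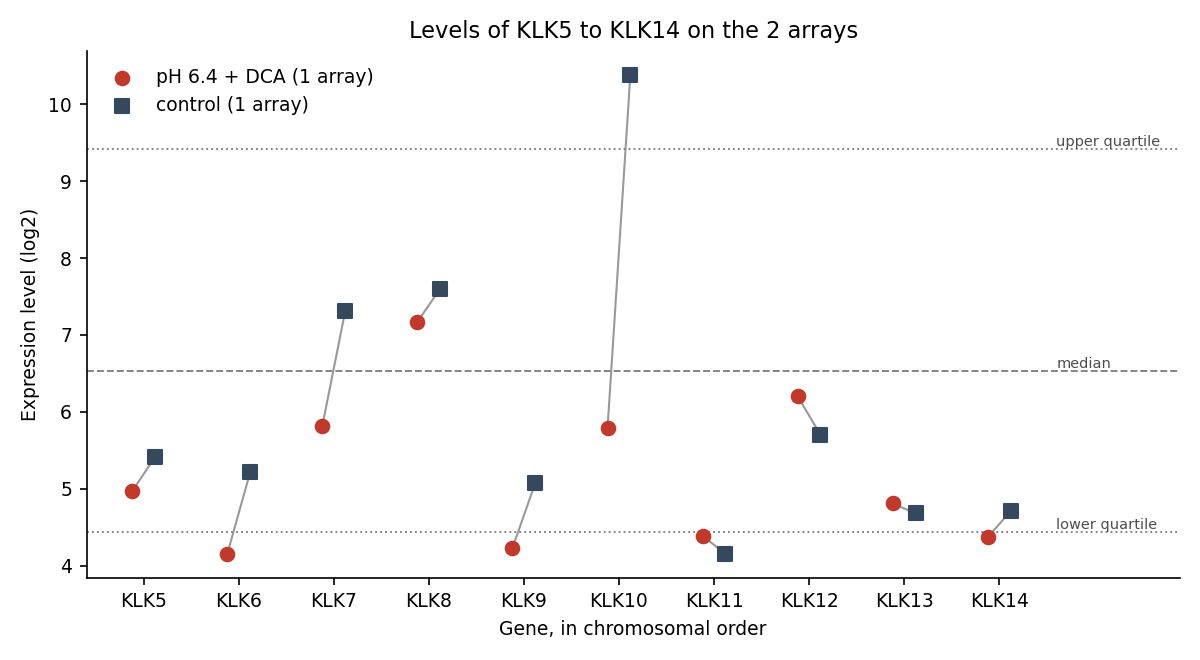
Log2 expression level (y axis) of KLK5 to KLK14 (x axis, in chromosomal order) on the pH 6.4 + DCA array (circles) and the control array (squares), 1 array each and hence no error bars, with dotted and dashed lines at the quartiles and median of transcript clusters (mean of both arrays) and grey lines joining the levels of a gene. KLK10 stands out with 5.79 in pH 6.4 + DCA and 10.38 in control, while the levels of each of KLK5, KLK8 and KLK11 to KLK14 differ by 0.50 or less between the arrays.

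Taking the members as a list, 3 of 10 were at least 2-fold lower, none was at least 2-fold higher and 7 were neither. Over all 20893 transcript clusters, 835 were lower, or 4.00%, and 553 were higher, or 2.65%. Because the members were chosen with this contrast in view, their count is set beside the background and nothing is read from it. At a threshold of 3-fold only KLK10 was lower, against 1.35% of all transcript clusters lower and 0.507% higher, and at 1.5-fold KLK6, KLK7, KLK9 and KLK10 were lower, against 11.5% lower and 10.9% higher. The background depends on level. With transcript clusters split into 4 classes of equal size by mean level, 0.689% were 2-fold lower in the dimmest class, which holds KLK11, 3.89% in the next class, which holds 6 members, and 6.59% in the class above it, which holds KLK7, KLK8 and KLK10. Differences were below 0 in 7 members and above 0 in 3. The median was -0.43 over the 10 members and -0.43 without KLK10, whereas the mean was -0.83 with KLK10 and -0.41 without.

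The members called lower lie within a run of 6 adjacent genes. In gene order, KLK5, KLK6, KLK7, KLK8, KLK9 and KLK10 follow each other, and all 6 had differences below 0, with a median of -0.95. On one side of this run the next genes are KLK11, KLK12, KLK13 and KLK14, with a median of 0.18. The other side holds KLK4, an enzyme of enamel formation, at 0.25, KLK2 at 0.26, KLK3 at -0.24, KLK15 at -0.19 and KLK1, the kinin-releasing tissue kallikrein, at -0.01, none of them called. KLK3 encodes prostate-specific antigen and KLK2 its close relative, and their sequences are alike enough that short probes may not fully separate them. The run was noticed after the values were seen and has no test. Within it the size of the difference did not follow position, since KLK8, between KLK7 and KLK9, was among the least changed.

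Beyond the kallikreins, none of the neighbouring genes of chromosome 19 was called, and several of them were dim. Of the 10 measured genes on either side of the cluster, 20 in all, none was lower and none was higher, and their median was 0.04, with a range of -0.51 to 0.90. Leaving out the dimmest 25% of rows by mean level kept 13 of these 20 genes. Directly before KLK1 lies TMEM277P, at 0.06, and directly after KLK14 lies CTU1, which acts in the thiolation of transfer RNA, at 0.08. The highest neighbour was SIGLEC7, at 0.90, with dim levels of 4.11 in pH 6.4 + DCA and 3.21 in control. Over the 1256 measured genes of the chromosome, 4.06% were lower, 0.876% were higher and the median was -0.04. With shares this small, the lack of calls among 20 genes says little. No gene around the cluster came near the difference of KLK10, but few had the room for it. On the control array KLK10 had 10.38, and the highest neighbour by level was ETFB, at 10.11. Most neighbours lay below the control median of 6.55, where a drop of that size is hardly possible. Copy number was not analysed here.

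**Figure D2:**
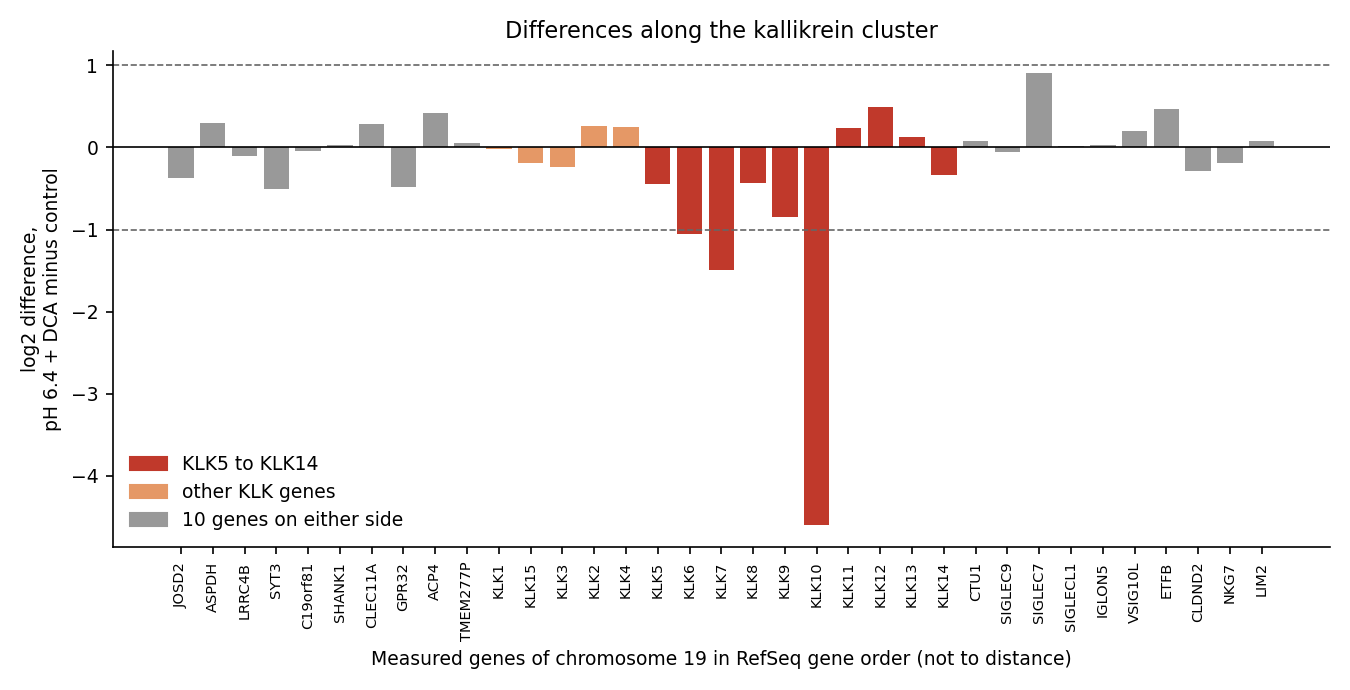
Log2 difference, pH 6.4 + DCA minus control (y axis), of each measured KLK gene and the 10 measured genes on either side, in RefSeq gene order along chromosome 19 (x axis, not to distance), 1 array per condition. Bars from KLK5 to KLK10 all point down and KLK10 reaches -4.59, whereas no gene outside the KLK cluster passes the dashed lines at 2-fold.

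Proteases listed here as activators of kallikrein precursors were lower in part. The list is broad, and whether each acts on a kallikrein directly was not examined. Among the 8 measured, 3 were lower and none higher, beside 4.00% of all transcript clusters lower and 2.65% higher. Their median was -0.57. PRSS8 (prostasin), a membrane-anchored protease of epithelial barriers, had levels of 11.71 in pH 6.4 + DCA and 13.68 in control, or 3.91-fold lower. ST14 (matriptase), which activates prostasin and several kallikrein precursors, had 7.16 in pH 6.4 + DCA and 9.02 in control, or 3.62-fold lower. PLAU, the urokinase plasminogen activator, had 11.16 in pH 6.4 + DCA and 12.98 in control, or 3.54-fold lower. These 3 genes lay above the median on both arrays, and all 3 calls held with 32 added on the linear scale. Leaving out the dimmest 25% of rows by mean level kept 6 of the genes, with a median of -1.29.

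Inhibitors of the kallikreins showed no common direction. Among the 11 measured, 1 was lower and 1 higher, beside 4.00% of all transcript clusters lower and 2.65% higher. Their median was 0.03. SPINT2, a Kunitz-type inhibitor of matriptase and prostasin, had 11.33 in pH 6.4 + DCA and 12.51 in control, or 2.26-fold lower. SERPINA3, alpha-1-antichymotrypsin, an acute-phase serpin that binds KLK3, had 10.80 in pH 6.4 + DCA and 7.58 in control, or 9.31-fold higher. SPINK6, SPINK7 and SPINK9, Kazal-type inhibitors, lay under the lower quartile on both arrays, with differences of 0.62, -0.20 and -0.65. SPINK5 was not analysed here.

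Substrates and receptors of the kallikreins were not called in either direction. Of 9 measured, none was lower and none was higher, beside 4.00% of all transcript clusters lower and 2.65% higher. With background shares this small, the lack of calls among 9 genes says little, and 2 of the 9 lay under the lower quartile on both arrays. Their median was -0.08 over all 9. DSG1, the desmoglein cut during epidermal shedding, had 5.70 in pH 6.4 + DCA and 4.81 in control, a difference of 0.89, and CDH1, E-cadherin, had 12.15 in pH 6.4 + DCA and 13.00 in control, a difference of -0.84. CDSN and F2RL1 were not analysed here.

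Cornification genes, which are expressed with the kallikreins in the upper layers of stratified epithelia, included several with lower levels. Among the 17 measured, 4 were lower and none higher, beside 4.00% of all transcript clusters lower and 2.65% higher. Their median was -0.17. The small proline-rich genes SPRR1A, SPRR1B and SPRR2A, which encode cross-linked proteins of the cornified envelope, had differences of -3.22, -2.43 and -1.54. CASP14, a protease of keratinocyte differentiation, had a difference of -1.85. Involucrin, IVL, an early envelope protein, had 5.51 in pH 6.4 + DCA and 6.36 in control, a difference of -0.86 that was not called.

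Other serine proteases of the same fold showed both directions. Among the 25 measured, 3 were lower and 2 higher, beside 4.00% of all transcript clusters lower and 2.65% higher. Their median was -0.07. The lower ones were PRSS22 at -2.10, PRSS21 at -1.76 and TMPRSS4 at -1.70, all membrane-bound or secreted proteases of epithelia or testis. The call of TMPRSS4, whose pH 6.4 + DCA level lay under the lower quartile, was lost with 32 added on the linear scale, which left 2 lower. HTRA1, a secreted protease, was higher by 1.64 and TMPRSS11B by 1.04, although TMPRSS11B lay under the lower quartile on both arrays and lost its call with 32 added. KLKB1, plasma kallikrein, which shares the name but lies on another chromosome, had 4.10 in pH 6.4 + DCA and 3.21 in control, a difference of 0.89 between dim levels.

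Nuclear receptors for steroids and vitamin D, through which several kallikrein genes are known to be regulated, were mostly near or above 0. Of 6 measured, none was lower and 1 was higher, beside 4.00% of all transcript clusters lower and 2.65% higher. Their median was 0.40. This rests largely on dim signals, since 4 of the 6 lay under the lower quartile on both arrays. Leaving out the dimmest 25% of rows by mean level kept 2 genes, with a median of 0.26. The vitamin D receptor VDR had 11.91 in pH 6.4 + DCA and 11.99 in control, a difference of -0.08. The glucocorticoid receptor NR3C1 had 11.42 in pH 6.4 + DCA and 10.82 in control, a difference of 0.60. The estrogen receptor ESR1 was higher by 1.06 but lay under the lower quartile on both arrays, at 4.450 in pH 6.4 + DCA and 3.39 in control, and this call was lost with 32 added on the linear scale.

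**Figure D3:**
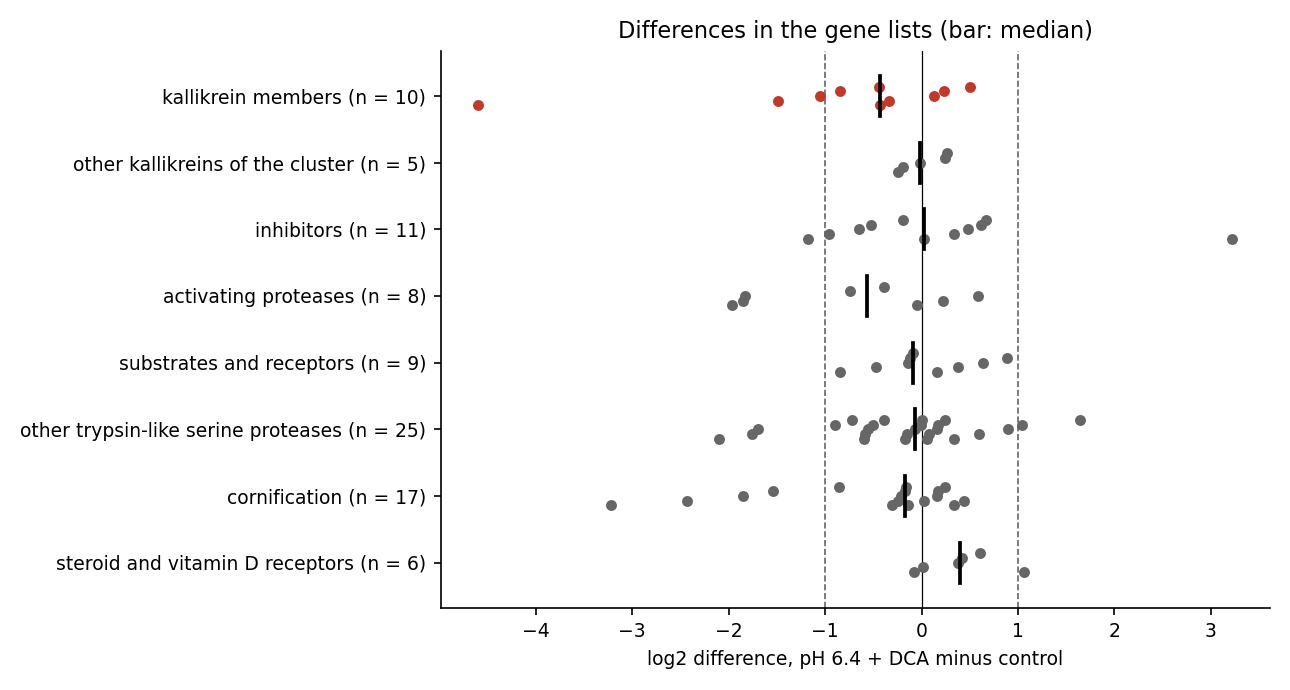
Log2 difference, pH 6.4 + DCA minus control (x axis), of each measured gene in the kallikrein members and 7 other gene lists (y axis, number of genes in brackets), with black bars at the medians and dashed lines at 2-fold, 1 array per condition. The medians run from -0.57 for the activating proteases to 0.40 for the receptors, and KLK10 at -4.59 is the lowest point in any list.

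The genes whose pair of levels lay nearest to that of KLK10 were CDKN3, FAM72D and FAM72A. Likeness was the Euclidean distance between log2 levels over the 2 arrays, which is a weak measure because any gene with a large decrease from a similar level qualifies. CDKN3, a phosphatase of the cell cycle, lay at a distance of 0.14, with 5.92 in pH 6.4 + DCA and 10.43 in control. FAM72D and FAM72A, near-identical copies that the probes may not separate, lay at 0.46 and 0.60, with differences of -3.95 and -3.76.

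The settings that can move a member's difference are centring, quantile normalization, removal of the lowess trend and the addition of 32 on the linear scale. Averaging rows cannot, since each member has 1 row, and leaving out dim rows only keeps or drops a member. With these included, the difference of KLK10 ranged from -4.60 to -3.97 and that of KLK7 from -1.49 to -1.11. That of KLK6 ranged from -1.08 to -0.47. No member changed sign under the settings run, and KLK11, KLK12 and KLK13 stayed above 0.

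**Figure D4:**
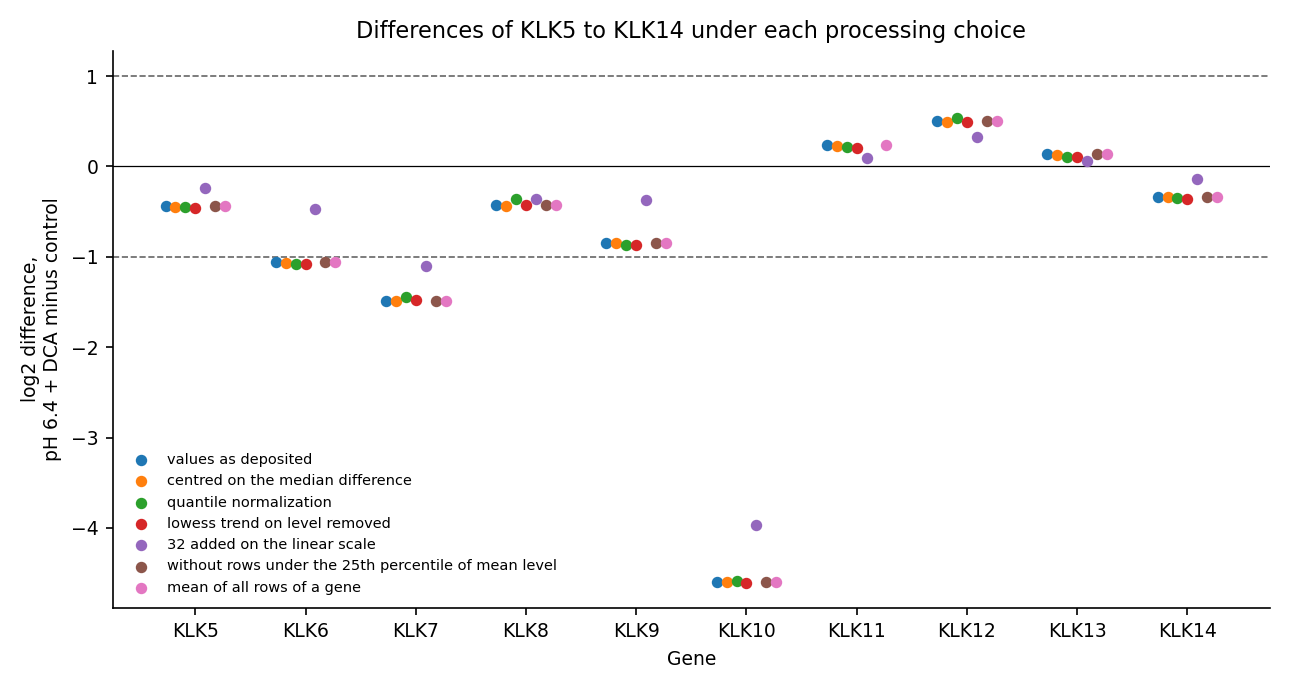
Log2 difference, pH 6.4 + DCA minus control (y axis), of KLK5 to KLK14 (x axis) with the values as deposited and under 6 other processing choices (colours). All points of KLK10 lie between -4.60 and -3.97 and those of KLK7 beyond the dashed line at 2-fold, while KLK6 crosses that line only with 32 added on the linear scale, and KLK11 has no point where the dimmest 25% of rows were left out.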

How the data were processed

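Biotin-labelled cDNA from total RNA of CP-A cells was read on Clariom S arrays, 1 per condition. The authors used Transcriptome Analysis Console (4.0, according to the processing notes of the submitters) and deposited a table of 21448 rows of log2 levels. How background and normalization were handled, and the build, is not given in the sources used here. Whether the array RNA came from nocodazole-treated cells, as the RT-qPCR RNA did, is not stated either. Values were used as deposited for 20893 transcript clusters, leaving aside 555 unmapped transcripts. The platform annotation gave 1 gene symbol to 17709 rows and none to 3739, and the row with the highest mean was kept per gene. RefSeq (GRCh38.p14) gave the gene order and the promoters.

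Members, lists and alternatives were chosen with earlier results of these data known. Named are all KLK genes, and in each list the first gene and up to 4 called genes per direction. The genes next to the cluster and the 3 nearest to KLK10 are named too. SIGLEC7, ETFB, CDH1, SPINK6, SPINK7, SPINK9, VDR and marker genes were named after their values were seen. With 1 array per condition there is no test, and precision is limited by that number. The alternatives were median centring, quantile normalization, a lowess trend removed (span 0.3), 32 added on the linear scale, the dimmest 25% of rows left out, thresholds of 1.5-fold and 3-fold, all rows of a gene averaged, the mean for the median, all KLK genes and, added after seeing the data, KLK10 left out. The steps were run on simulated data with planted changes and assumed noise, which checks the code and says nothing on the noise of these arrays. Python 3.11.15, numpy 2.4.6, pandas 2.3.3, statsmodels 0.14.6 and matplotlib 3.10.9 were used.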

Additional observations from a re-analysis of the deposited data

How the results depend on the processing

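The count of 3 lower members was 1, KLK10, at a threshold of 3-fold, which 1.35% of transcript clusters passed downward. It was 4, with KLK9 added, at 1.5-fold, which 11.5% passed, and 2 with 32 added on the linear scale. No member was higher at any threshold. The median of the members stayed between -0.45 and -0.24 in all settings that kept the median, the highest with all 15 KLK genes, and the mean was -0.83. With 32 added on the linear scale KLK6 moved to -0.47 and KLK10 to -3.97. In the other lists, the 3 lower trypsin-like proteases became 2 with 32 added, without TMPRSS4, the 2 higher trypsin-like proteases became 1 and the 1 higher receptor became 0, both with 32 added and without the dimmest 25% of rows, and the median of the activating proteases was -1.29 without those rows. Of 204 alternative values, 196 were differences and medians that shifted by less than 1.5-fold or counts within 1.5 times, and no called value changed sign. Many of these could not move: averaging rows or leaving out dim rows left the difference of each kept member as it was. Centring shifted every difference by only 0.0066. A count that fell from 3 to 2 also passed as within 1.5 times, so the 196 values are no measure of robustness. Dim signals limit the members near or under the lower quartile. No paired analysis was possible because each condition had 1 array.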
